A study of Mus musculus with 12 samples.

Results

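IL-10+ B cells from house dust mite (HDM) allergic mice were compared with IL-10+ B cells from control mice. All 6 arrays whose titles name IL-10+ cells entered the comparison, 3 per group, out of 12 arrays in the series. The other 6 arrays hold the IL-10- B cells of the same kinds of mice and served only to estimate the spread and to set values side by side. Both IL-10+ groups came from spleens of female Balb/c mice. Purified B cells of both were cultured for 2 days with a CD40 agonist, received lipopolysaccharide (LPS) for the final 5 hours, and were sorted on secreted IL-10. The labelled difference between the groups was the mouse: control, or made allergic to HDM as a model of asthma. The labels used here state no age, no sensitisation schedule and no number of mice, and leave unsaid whether a group's 3 arrays stem from different animals or cultures. The p-values therefore measure the spread between these arrays, which may be technical. Because all cells had been stimulated in culture before the sort, the values describe activated B cells and not cells as they were in the mouse.

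B cells that secrete IL-10 can restrain immune responses and are called regulatory B cells. They use IL-10 together with surface molecules that inhibit or kill other cells, and some of them go on to become antibody-secreting plasmablasts. In HDM allergy, T helper cells making IL-4 and IL-13 signal through STAT6 and drive B cells to switch to IgE, the antibody that arms mast cells and basophils. The comparison asks which regulatory, antibody and allergy genes read alike in IL-10+ cells of both kinds of mice and which differ.

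Each array measured 55681 probes of 60 bases. A level below is the log2 processed signal of a probe minus the 75th percentile of its own array, so 0 is the signal of a bright probe and values near -6 are those of a dim one. Levels of different probes cannot be set against each other, since probes differ in how well they bind. One probe per gene name was kept and 24945 names, called genes below, were tested. Of these, 10652 had no gene symbol but names such as a clone, an accession or a position, so several can stand for 1 gene. Shares of all genes are taken over this mix. Well above background is the scanner software's own flag for a spot. The 6 arrays lay on 1 slide and were scanned once, so slide cannot separate the groups. Position on the slide was uneven: all 3 controls and HDM 1 lay in row 1, HDM 2 and HDM 3 in row 2. What position contributes was not tested. IL-10+ control 2 stood apart: 78.6% of the tested genes were well above background there, against 85.5% to 90.4% on the other 5 arrays, and its mean correlation with the other 11 arrays was 0.867, against 0.898 to 0.901. The larger differences that move by over 1.5 times without this array are given both ways. In the 12-array fit the IL-10- HDM 3 array, with a mean correlation of 0.775, also enters the common spread, so intervals from the 6 IL-10+ arrays alone are also drawn for the antibody and allergy genes and printed for selected genes.

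Markers of the labelled cell type were present. Every one of the 13 B cell markers listed passed the filter on dim probes, and 12 were well above background on all 6 arrays. Their summed signal spanned 7.10 to 7.39 (log2) in controls and 7.07 to 7.33 in HDM. Of 16 T cell markers, 12 passed and 10 had a positive difference, with summed levels of at most 3.56 in controls and 3.58 in HDM. All 7 natural killer and innate lymphoid markers that passed, of 11, had a positive difference, with a median of 0.71 (0.44 without control 2) and summed levels of 1.18 to 2.24 in controls and 2.03 to 2.91 in HDM. One of the 7, Prf1, the pore-forming protein of killer cells, did not overlap, at -0.05, -0.61 and -0.07 in controls and 0.28, -0.01 and 0.85 in HDM, a difference of 0.62 (SE 0.42). Ncr1, a receptor that defines natural killer cells, read -0.85, -3.08 and -0.16 in controls and -1.62, -0.74 and -0.32 in HDM, with overlap and a difference of 0.47 (-0.39 without control 2). Of 12 stromal and endothelial markers 5 passed, and their summed level separated the groups, at 3.24 to 3.56 in controls and 2.59 to 3.00 in HDM. Pecam1, an adhesion molecule of endothelium that leukocytes also carry, was the one member without overlap, at 2.95, 3.37 and 3.07 in controls and 2.67, 2.38 and 2.08 in HDM, a difference of -0.75 (SE 0.37). Of 14 monocyte and macrophage markers 10 passed, with summed levels of 8.87 to 9.19 in controls and 8.97 to 9.04 in HDM. Of 11 neutrophil markers 6 passed, at 7.40 to 7.73 and 7.41 to 7.57. Of 10 dendritic cell markers 7 passed, at 5.98 to 6.30 and 6.14 to 6.21. Sums over different probes do not rank cell types, so the purity of the sort was not measured. Of 11 mast cell and basophil markers 3 passed. Fcer1a and Ms4a2, subunits of the high-affinity IgE receptor that define those cells, did not. What these other cell types contribute to any value below was not tested. In bulk samples, fewer cells of a type and less RNA per cell cannot be told apart.

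The antibody results turn on a few probes of the heavy chain locus on chromosome 12 (genome build mm9 in the array files), shown here because probes of the IgG genes share bases and because the Ighg1 probes gave different answers. Capitals mark the longest stretch shared by the first Ighg1 probe (chr12:114567263-114567322) and the Ighg3 probe (chr12:114597942-114598001), which is 13 bases long. The other Ighg1 probe (chr12:114568594-114568653) and the Ighm probe (chr12:114659630-114659689) are all in lower case. The last line holds bases 31 to 60 of the probe for the predicted gene ENSMUST00000100326 (the whole probe spans chr11:106022413-106022472), the 1 transcript that passed the test, with the hexamer AATAAA in capitals.
Ighg1: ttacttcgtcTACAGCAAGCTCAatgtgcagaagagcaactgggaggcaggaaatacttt
Ighg3: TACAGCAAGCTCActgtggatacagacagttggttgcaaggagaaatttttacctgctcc
Ighg1, other probe: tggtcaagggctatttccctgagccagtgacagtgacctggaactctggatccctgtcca
Ighm: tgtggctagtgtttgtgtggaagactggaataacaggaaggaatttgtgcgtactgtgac
ENSMUST00000100326: cctgtaacaggAATAAAactggtggctcta

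The Ighm probe shares at most 6 bases in a row with the first Ighg1 probe or the Ighg3 probe. It was not compared with the other IgG probes. The letters AATAAA, which can act as a polyadenylation signal in a transcript, stand in 10.1% of all 55681 probes on the printed strand and in 3.7% on the other strand, so their presence in 1 probe is a description and marks no site.

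Il10, the gene of the cytokine used for the sort, was far above the 75th percentile on all 6 arrays. Control arrays read 6.97, 7.57 and 6.92, and HDM arrays 6.89, 6.97 and 6.42. The groups overlapped. HDM minus control was -0.39 (SE 1.18), with a 95% interval of -3.02 to 2.23 in the 12-array fit and of -1.21 to 0.43 in the 6 arrays alone. Without control 2, where Il10 was highest, it was -0.18. The exact two-sided permutation p was 0.2, where 3 arrays against 3 can give no less than 0.1. The 6-array interval ends at a fall of 1.21 on the log2 scale, but the 12-array interval allows larger falls. Both include falls beyond 2-fold. Cd9, the tetraspanin in the series title, read 0.89, 2.70 and 1.25 in controls and 1.02, 1.44 and 0.69 in HDM. Its difference of -0.57 (SE 0.80, exact two-sided permutation p = 0.5) was -0.02 without control 2, the array where Cd9 was highest. The groups overlapped, and the 6-array interval of -1.88 to 0.75 still spans falls beyond 2-fold.

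Of the genes that keep company with IL-10 in regulatory B cells, 28 of 30 listed passed the filter. None passed the test at an adjusted p under 0.05 (limma, Benjamini-Hochberg over all genes), against 0.00401% of all tested genes. Differences split into 14 positive and 14 negative with a median of -0.01, where the median of all tested genes was 0.07 and 56.3% were positive. The authors' value table, which scales each array another way, puts the median of all genes at -0.21 and that of these 28 at -0.30. Arrays of the groups did not overlap for 2 members in the higher and 2 in the lower direction, against 9.61% of all genes in either direction. For 4 of the 28 the 95% interval lay within 2-fold in either direction, the measure used here for likeness, against 13.3% of all genes. The other 24 were neither shown to differ nor shown to be alike.

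Those 4 were Havcr1, Cd274, Cd80 and Cd22. Havcr1 encodes TIM-1, a surface marker of IL-10-producing B cells, and differed by -0.16 (-0.89 to 0.56). Cd274 encodes PD-L1, a ligand that inhibits T cells, and read 3.72, 4.94 and 4.41 in controls and 4.18, 4.15 and 4.60 in HDM, a difference of -0.04 (-0.90 to 0.81). Cd80, which engages CD28 and CTLA-4 on T cells, differed by 0.11 (-0.60 to 0.81) at the probe kept and by -0.61 at another probe of the gene. Cd22, an inhibitory coreceptor of the B cell receptor, differed by 0.20 (-0.46 to 0.85). These values place each of the 4 probes within 2-fold of the control level.

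Ebi3 and Lag3 were the members that did not overlap in the lower direction. Ebi3, the shared subunit of IL-27 and IL-35, read 5.40, 6.04 and 5.40 in controls and 5.32, 5.09 and 4.80 in HDM, a difference of -0.54 (SE 0.32, limma adjusted p = 1), or -0.33 without control 2. Lag3, an inhibitory receptor for MHC class II, read 0.76, 2.37 and 0.82 in controls and -1.38, -0.91 and 0.13 in HDM. That was a difference of -2.04 (SE 1.83, interval -6.11 to 2.04; limma adjusted p = 1), or -1.51 without control 2. The 6 arrays alone gave Lag3 a narrower interval of -3.52 to -0.55 with an unadjusted p of 0.015 and an adjusted p of 0.97.

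In the higher direction the members without overlap were Tnfrsf1b and Havcr2. Tnfrsf1b, the second receptor for TNF, read -0.55, -0.48 and -1.96 in controls and -0.35, 0.18 and 0.02 in HDM, a difference of 0.95 (SE 0.67). Havcr2, which encodes the inhibitory receptor TIM-3, was well above background on no control array and on 1 HDM array, so its difference of 1.69 rests on dim signal. Further inhibitory and effector members gave negative differences that the arrays could not resolve: Ctla4 -0.45, Tigit -0.74, Btla -0.53, Cd200 -0.61 and Fasl -0.43. The list as a whole was split evenly, with 14 members positive and 14 negative, and not all members are given here. Without control 2, Ctla4 was -0.21, Btla -0.095 and Cd200 -0.25, and without HDM 1 Fasl was 0.39. The ectoenzymes that make adenosine, Nt5e (CD73) and Entpd1 (CD39), differed by 0.02 and 0.07 with intervals wider than 3 log2 units, and by 1.09 and -0.81 without control 2. Gzmb, which encodes a killer protease, and Il12a, the other subunit of IL-35, did not pass the filter on dim probes.

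The IL-10 gene cluster and the IL-10 receptor pathway, 10 of 10 genes tested, held 2 positive and 8 negative differences, with a median of -0.35, or -0.07 without control 2. None was called and 1 of the 10 did not overlap, beside 9.61% of all genes. That gene was Jak1, the kinase bound to the IL-10 receptor, at 2.46, 3.67 and 2.44 in controls and 1.94, 2.07 and 2.36 in HDM, a difference of -0.74 (SE 0.65), or -0.33 without control 2. Il19, a neighbour of Il10 in the cluster, read -1.00, 3.42 and 0.88 in controls and -0.51, 0.40 and 0.23 in HDM. Its difference of -1.06 became 0.10 without control 2, the array where Il19 was brightest. Il10ra, the ligand-binding receptor chain, differed by -2.58 (-5.91 to 0.76) with all arrays and by -1.22 without control 2. Stat3, which carries the IL-10 signal to the nucleus, differed by -0.31 (-1.20 to 0.57), and its inhibitor Socs3 by -0.78 (-0.45 without control 2). Among 18 tested transcription factors known to act on Il10, 9 differences were positive, the median was 0.01 and the groups overlapped for every gene.

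**Figure D1:**
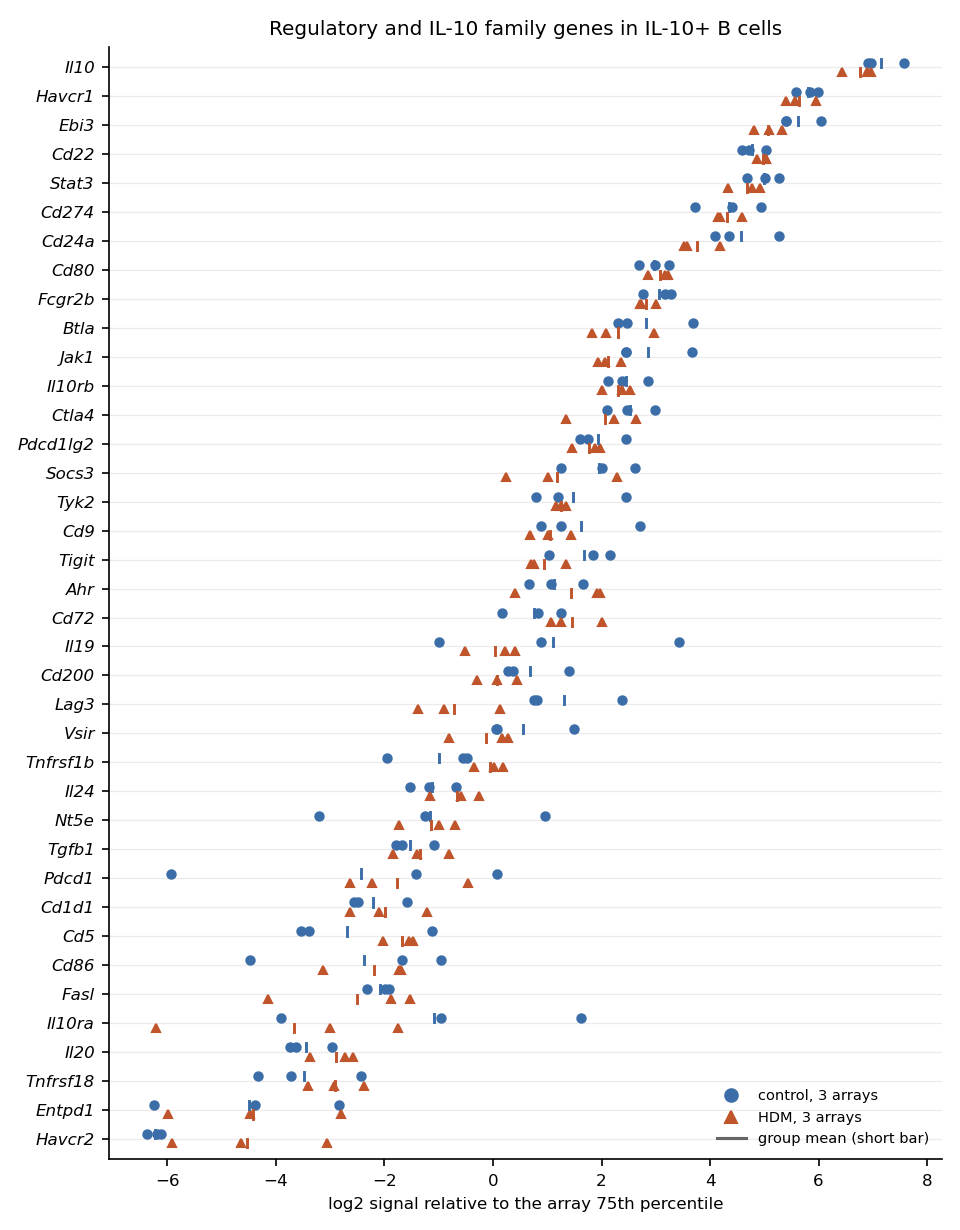
Level of each tested regulatory and IL-10 family gene on every IL-10+ array, as log2 signal relative to the array's 75th percentile; circles are the 3 control arrays, triangles the 3 HDM arrays and short bars the group means. Circles and triangles are mixed for Il10 and Cd9, lie apart for Lag3 and Jak1, and scatter most where a probe is dim.

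Among antibody genes, Ighm and Pigr lay within 2-fold of the control level, while every IgG probe was lowest on control 2. Ighm, the constant region of IgM and of the B cell receptor on unswitched cells, read 5.30, 6.21 and 5.58 in controls and 5.73, 5.84 and 5.65 in HDM, a difference of 0.04 (-0.69 to 0.76). Pigr, the receptor that carries polymeric antibody, spanned only 7.25 to 7.54 over all 6 arrays and differed by -0.01 (-0.65 to 0.63). The light chain constant regions Igkc and Iglc2 differed by -0.14 (-1.04 to 0.77) and 0.27 (-0.74 to 1.29), intervals slightly wider than 2-fold. Jchain, the chain that links polymeric IgM and IgA, which marks antibody-secreting cells, read 0.88, 3.41 and 1.61 in controls and 1.33, 1.85 and 2.53 in HDM. Its difference was -0.06, and the interval of -2.02 to 1.89 spans changes beyond 2-fold in both directions. Without control 2, the highest array, it was 0.66.

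On the IgG probes, control 2 stood below the other 5 arrays. Ighg3 read 1.01, -6.26 and 1.47 in controls and 1.70, 2.22 and 0.83 in HDM, so control 2 lay at the floor of the array and every other array lay above 0. The difference of 2.84 (SE 2.29) became 0.34 without control 2. Ighg2c was likewise lowest on control 2, at -0.26, -4.69 and -0.51 in controls and -0.30, -0.75 and 0.00 in HDM, with a difference of 1.47 that became 0.032. Ighg1 gave 0.02 at the probe kept, which read 2.44, -1.39 and 0.51 in controls and 0.25, 0.78 and 0.58 in HDM. Its other probe gave 1.91, from 0.22, -5.40 and -3.55 in controls and -2.21, -0.37 and -0.44 in HDM. Control 2 was the lowest of the 6 arrays at both, and without it the probe kept gave -0.94. The sign of Ighg1 depended on the scaling, with -0.14 under normexp background correction, -0.10 under quantile normalization and -0.27 in the authors' value table.

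For Ighg2a, control 2 was again lowest, and its difference of 1.58 (SE 0.87) became 1.01 without that array. The Ighg2c and Ighg2a probes lie close together, at chr12:114523536-114523595 and chr12:114525496-114525555. Whether they read separate genes in these Balb/c mice was not tested. Ighe, the IgE constant region, was well above background on 1 control array and 1 HDM array only, and its difference of -0.31 (-2.22 to 1.59), or -1.14 without control 2, says little at this signal. On the Ighm probe the same array, control 2, was the brightest of the 6, at 6.21. Over all tested genes control 2 was the lowest of the 6 arrays for 31.6% and the highest for 26.7%. The constant region list also holds other antibody genes, such as Fcrla, so its counts do not describe constant regions alone. It had 13 tested genes of 18, with 9 positive and a median of 0.18 (0.34 without control 2). Of the 13, 1 was without overlap, beside 9.61% of all genes. Ighd, Ighg2b, Igha, Iglc1 and Iglc3 had no probe of that name, though probes for them may exist under other names.

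The array design files 3 further probes of this stretch of chromosome 12 under the name of a variable segment family, Igh-VJ558. They lie near the Ighe probe, on its side away from the IgG and Ighm probes. Which constant region they measure, if any, was not tested. Their differences, 3.00, 3.60 and 3.16 in order of position, were the largest at the constant region probes. The probe at chr12:114497090-114497149 read -2.39, -6.23 and -0.60 in controls and -0.13, 1.60 and 0.12 in HDM, without overlap. At chr12:114496985-114497044 the levels were -1.42, -5.22 and -4.73 against -2.62, 1.26 and -0.99, and at chr12:114498348-114498407 they were -0.54, -6.11 and -2.15 against -1.94, 2.62 and 0.01. Both of these overlapped. All 3 probes were well above background on every HDM array and lowest on control 2, without which the differences were 2.29, 2.02 and 1.57. None was the probe kept for its name, so none entered the test.

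The 1 antibody list gene without overlap was Fcrla, an intracellular Fc receptor-like protein of B cells that binds immunoglobulin. It read -3.38, -6.15 and -6.33 in controls and -2.36, -2.39 and -2.90 in HDM, a difference of 2.73 (SE 1.25, interval -0.04 to 5.51, limma adjusted p = 1). All HDM arrays but only 1 control array were well above background. IL-10- cells gave 2.94 for the same gene, and the difference between both effects was -0.21 (SE 1.76, limma adjusted p = 0.98).

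**Figure D2:**
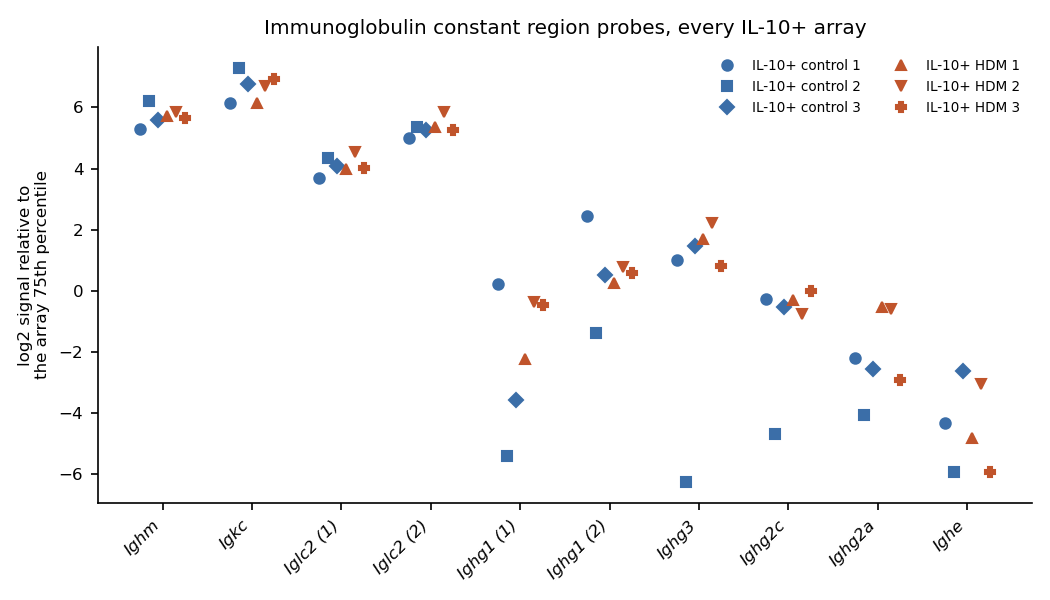
Level of each immunoglobulin constant region probe on every IL-10+ array, as log2 signal relative to the array's 75th percentile, with 1 colour or marker per array. Ighm and the light chain probes spread by at most 1.17 over the 6 arrays, while control 2 falls far below the rest on Ighg3 and Ighg2c.

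Plasma cell genes spread to both sides of 0, with differences from -2.22 to 2.34. Of 22 listed, 20 were tested, 9 were positive and the median was -0.03. None was called and 1 of the 20 did not overlap, beside 9.61% of all genes. Prdm1, which encodes Blimp-1, the factor that commits B cells to secretion, read 1.51, 1.15 and 1.20 in controls and 1.12, 1.58 and 1.35 in HDM, a difference of 0.07 (-0.85 to 0.99). Slamf7, a surface receptor rich on plasma cells, differed by -0.13 (-0.87 to 0.61). These were the plasma cell members with intervals inside 2-fold. Irf4, which acts upstream of Prdm1, differed by -0.21 (-1.21 to 0.79), and Pou2af1, a B cell coactivator, by -0.11 (-2.29 to 2.08).

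Txndc5, a protein disulfide isomerase of the endoplasmic reticulum, was the member without overlap, at 1.95, 2.10 and 1.94 in controls and 1.84, 1.57 and 1.34 in HDM. Its difference of -0.41 (SE 0.37) was small. Mzb1, a chaperone of IgM assembly, read -2.18, -6.13 and -1.45 in controls and 0.05, -1.69 and -1.08 in HDM, and its difference of 2.34 became 0.90 without control 2. Creb3l2, a factor of secretory cells, differed by -2.22 (-4.94 to 0.50), or -1.11 without control 2. Sdc1, the plasma cell marker CD138, was well above background on 1 array of each group. Probes were taken as variable region segments by name or description, and not all need be such segments. For example, chr12:114525600-114525659 lies beside the Ighg2a probe, and chr6:43031517-43031576 and chr16:3522083-3522142 lie far from the others. The 132 tested held 70 positive differences and a median of 0.02. Of them 10 did not overlap in the higher and 7 in the lower direction, beside 5.87% and 3.74% of all genes. The largest among those with the smallest p was a kappa variable segment probe at chr6:68784842-68784899, at 2.68, 3.42 and 4.41 in controls and -0.50, -2.47 and -0.43 in HDM. It differed by -4.64 (SE 1.32, limma adjusted p = 1).

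Allergy genes were read from 3 lists, the first on IL-4, IL-13 and STAT6. It held 20 tested genes of 22, with 12 positive, a median of 0.18, none called, and 1 without overlap, beside 9.61% of all genes. Fcer2a encodes CD23, the low-affinity IgE receptor, which IL-4 induces on B cells. It read 0.97, -0.03 and 0.84 in controls and 1.74, 2.04 and 1.30 in HDM, so every HDM array lay above every control array. The difference was 1.10 (SE 0.81, interval -0.72 to 2.91, limma adjusted p = 1), with an interval of 0.13 to 2.07 in the 6 arrays alone and 0.78 without control 2. In IL-10- cells the same gene differed by -0.49.

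The receptor and signal genes of that pathway showed smaller values. Il4ra, the IL-4 receptor chain, differed by 0.41 (-0.92 to 1.73), and Stat6 by -0.34 (-1.84 to 1.17). Averaging all probes of each gene turned both signs, to -0.08 and 0.23. Il2rg, the common gamma chain, differed by -0.17 (-0.93 to 0.59), and Batf, a factor needed for class switching, by 0.07 (-0.62 to 0.76). Both intervals lay within 2-fold. The chemokines of this list, both ligands of the T cell receptor CCR4, differed in how well they were measured. Ccl22 read 4.10, 4.82 and 4.12 in controls and 4.16, 4.38 and 4.21 in HDM, a difference of -0.10 (-1.38 to 1.19). Ccl17 read -0.78, -5.90 and -1.39 in controls and -1.13, -0.70 and 0.63 in HDM, and its 2.29 became 0.68 without control 2.

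The second list holds cytokines of allergy and their receptors. The cytokines at the centre of the disease model, Il4, Il5, Il13, Il33 and Tslp, did not pass the filter on dim probes, and neither did Il6, Ccl11, Ccr3 or Il17rb. In all 16 of 25 were tested, 11 were positive and the median was 0.12. None was called and 2 of the 16 did not overlap, beside 9.61% of all genes. Il7r encodes the receptor chain shared by IL-7 and TSLP. It read -3.29, -2.80 and -1.81 in controls, all well above background, and -6.35, -6.05 and -6.23 in HDM, none well above background. The difference was -3.58 (SE 0.88, interval -5.54 to -1.62, limma unadjusted p = 0.0022, adjusted p = 1), at least 2.51-fold lower when the dim group is set at the lowest signal called well above background. Without control 2 it was -3.66. IL-10- cells differed by 0.98 in the other direction, and the difference between both effects was -4.55 (unadjusted p = 0.0044, limma adjusted p = 0.69). Crlf2, the partner chain of Il7r in the TSLP receptor, differed by 0.16 (-0.84 to 1.15).

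Csf2, which encodes GM-CSF, was the second member without overlap. It read -1.45, -1.14 and -1.16 in controls and 0.24, -0.28 and -0.54 in HDM, a difference of 1.06. The 12-array interval was -2.46 to 4.57 and the 6-array interval 0.26 to 1.85 (limma adjusted p = 1 and 0.97). Il1rl1, the IL-33 receptor, differed by 0.09 (-0.69 to 0.87) and Il3ra by 0.17 (-0.59 to 0.93), both inside 2-fold. Il21r, whose ligand steers class switching, differed by 0.51 (-0.19 to 1.21).

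The third list, of IgE and Fc receptors, had 10 of 13 genes tested, 8 positive and a median of 0.15. Beside 9.61% of all genes, 2 of the 10 were without overlap, Fcer2a being one. The other was Fcrls, an Fc receptor-like scavenger receptor, at -2.66, -3.14 and -2.61 in controls and -2.03, -1.39 and -1.37 in HDM. It differed by 1.21 (SE 0.45, interval 0.20 to 2.22, limma unadjusted p = 0.023, adjusted p = 1), and was the only gene of the list with an unadjusted p under 0.05, against 2.28% of all genes. IL-10- cells gave -1.30 for Fcrls, and the difference between both effects was 2.51 (limma adjusted p = 0.64). Fcamr, a receptor for IgA and IgM, read -3.51, -3.78 and 0.27 in controls and 0.02, 0.70 and 0.73 in HDM, a difference of 2.82 (SE 2.01) with overlapping groups. Fcrl1, Fcrl5 and Fcgr1 differed by 0.02, 0.06 and 0.11, with intervals inside 2-fold. Fcgr2b, the inhibitory IgG receptor of B cells, differed by -0.26 (-1.40 to 0.89).

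**Figure D3:**
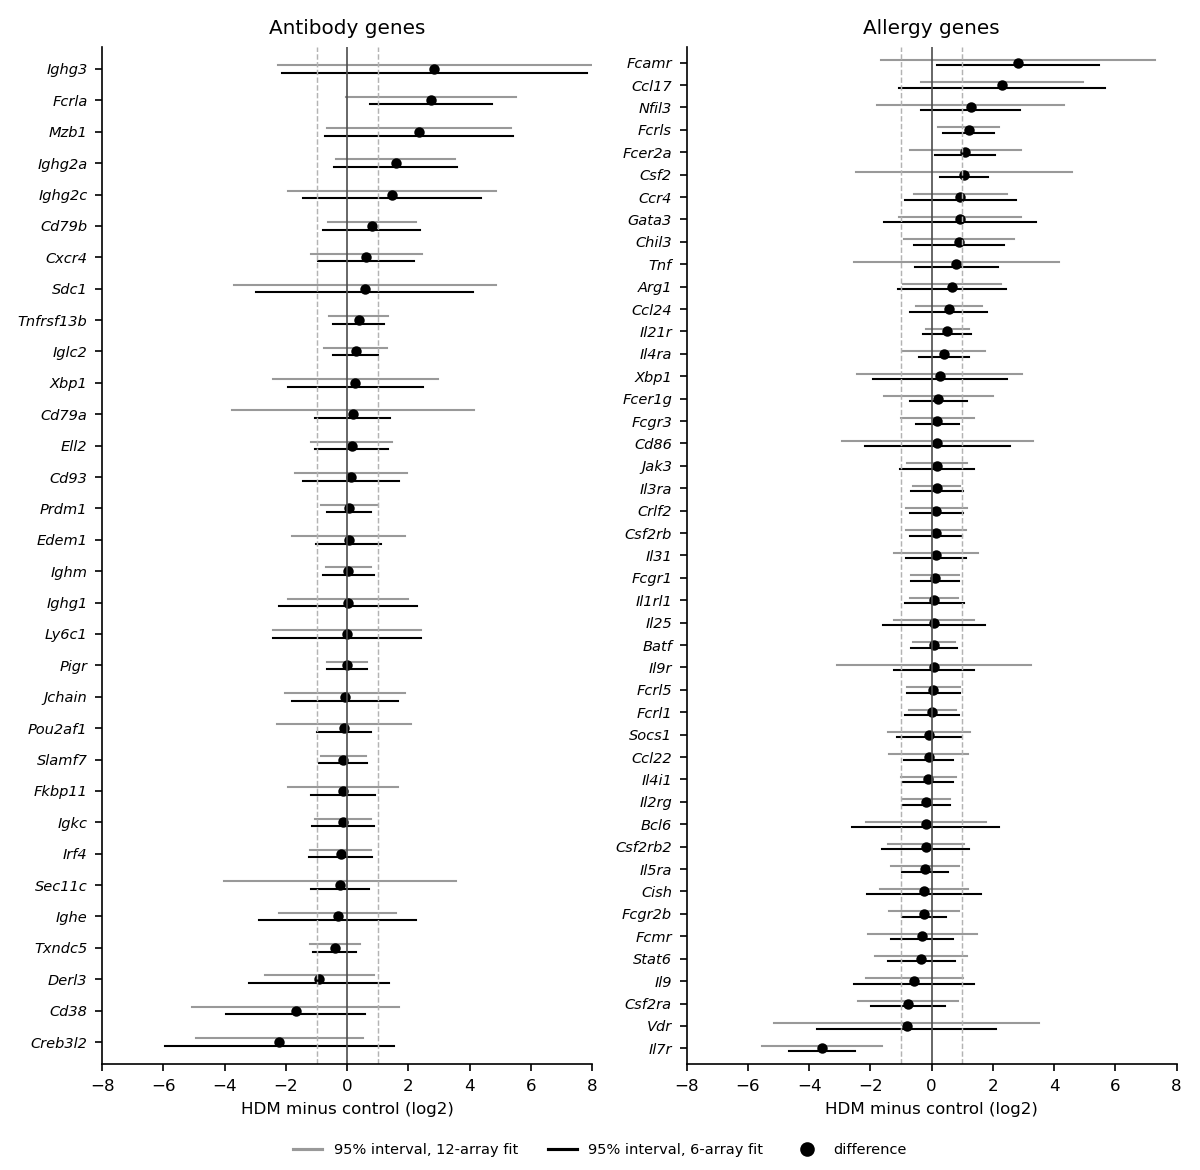
HDM minus control (log2) within IL-10+ cells for each tested antibody and allergy gene, with the 95% interval of the 12-array fit in grey and of the 6 IL-10+ arrays alone in black; dashed lines mark 2-fold. Short intervals around 0 belong to Ighm, Pigr, Batf and Il2rg, while Il7r lies to the left of 0 in both fits and Fcrls to the right.

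Over the 7 lists of regulatory, antibody and allergy genes together, 112 genes were tested. Of these 62 were positive, the median was 0.06, 6 did not overlap in the higher direction (5.87% of all genes) and 5 in the lower (3.74%), and 2 had an unadjusted p under 0.05. The 95% interval lay within 2-fold for 15 of the 112 in the 12-array fit, against 13.3% of all genes, and for 20 in the 6 arrays alone, against 17.3%. The counts lie near those of all genes, so they say nothing particular about these lists. The 15 genes within 2-fold are the ones for which likeness was measured, and the rest were left unresolved by 3 arrays a group.

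Over the whole array 1 of 24945 genes (0.00401%) passed the test at an adjusted p under 0.05, and 569 (2.28%) had an unadjusted p under 0.05, of which 408 (1.64%) were higher and 161 (0.645%) lower. The 6 arrays alone called 1 gene too, with 1099 (4.41%) at an unadjusted p under 0.05. The called transcript, the predicted gene ENSMUST00000100326, whose function is not known here, read -1.26, -1.06 and -0.98 in controls and -6.04, -5.76 and -5.96 in HDM. Among all 12 arrays it was well above background on the 3 IL-10+ control arrays alone, and it passed the filter only through them. It fell by 4.82 on the log2 scale (SE 0.35, limma adjusted p = 0.0016, 0.040 in the 6 arrays alone), at least 7.26-fold lower against the lowest signal well above background. Normexp background correction gave -1.40 and an adjusted p of 0.12, which ends the call, and a filter that asks for all 6 IL-10+ arrays removes the gene.

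The 12 genes with symbols that were higher in HDM with the smallest p, without overlap and well above background on all 3 HDM arrays, were not called. Cdc25c, a phosphatase that starts mitosis, read -6.09, -6.16 and -6.36 in controls and -1.75, -3.16 and -0.77 in HDM, a difference of 4.31 (SE 0.63, limma adjusted p = 0.17) and at least 4.44-fold. Ggt7, a gamma-glutamyltransferase family member, differed by 4.13, at least 4.79-fold. The others were Htra4 (3.69), Ago4 (3.61), Iffo1 (3.41), Gspt2 (2.74), Zfp219 (2.61), Uprt (2.30) and Chd3 (2.08), together with 3 whose roles in immune or metabolic cells are known. Vamp8, a SNARE protein of regulated secretion, read -1.83, -3.87 and -4.40 in controls and 0.19, -0.29 and -0.01 in HDM, a difference of 3.33. Me1, the cytosolic malic enzyme, differed by 3.45. Rsad2, which encodes the antiviral protein viperin, read -4.90, -5.09 and -3.00 in controls and -1.53, -1.87 and -1.54 in HDM, a difference of 2.69 (SE 0.64, limma adjusted p = 1). On 7 of the 12, no control array was well above background.

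The 12 lower genes chosen likewise also failed the adjusted test. Slc16a13, a monocarboxylate transporter family member, read -2.56, -3.16 and -1.46 in controls and -6.24, -6.00 and -6.18 in HDM, a difference of -3.75 (SE 0.48, limma adjusted p = 0.088) and at least 2.96-fold lower. Epb41l1, a protein of the membrane skeleton, differed by -2.67 (SE 0.34, limma adjusted p = 0.088), at least 1.56-fold lower, while another probe of the gene, below the filter, gave 0.96. Quantile normalization called both, with adjusted p of 0.030 and 0.022. Il7r, above, was among the 12. The others were Speer4b (-4.15, with -0.35 and -0.06 at other probes), Crat (-3.43), Kif22 (-3.29), Nptx2 (-3.01), Kdelr3 (-2.90), Arl16 (-2.73) and Pcbp4 (-2.40), and 2 that were measured on every array. Nkain1 read -0.12, 0.38 and 0.21 in controls and -1.44, -1.00 and -1.68 in HDM, a difference of -1.53 (SE 0.34, limma adjusted p = 1), and -0.72 at its other probe. Sh2d6 read -1.03, -2.54 and -1.40 in controls and -3.27, -2.79 and -3.32 in HDM, a difference of -1.47 (SE 0.41).

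For 9 of the 12 lower genes no HDM array was well above background. Over all tested genes, 84 (0.337%) were well above background on all HDM and no control array, 62 (0.249%) on all control and no HDM array, and 17269 (69.2%) on all 6. Most named genes are thus probes seen in 1 group only, and for those the level of the dim group is a bound.

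**Figure D4:**
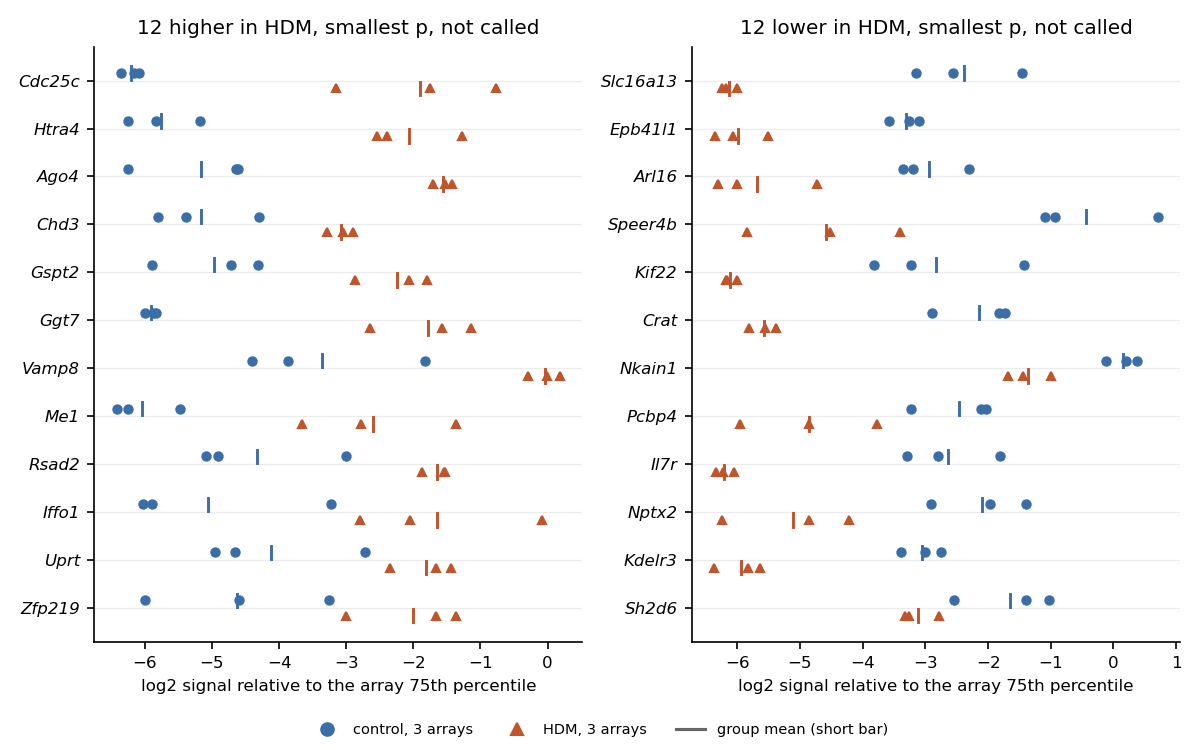
Level of the 12 higher and 12 lower named genes on each IL-10+ array, as log2 signal relative to the array's 75th percentile; circles are control arrays, triangles HDM arrays and short bars group means. The dim group of most genes lies near -6, the floor of the arrays, while Nkain1 and Sh2d6 lie above it in both groups.

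Other gene groups of activated B cells held no called gene. DNA replication genes had 7 positive of 26 tested, a median of -0.37 (-0.15 without control 2) and 5 without overlap, all lower. Over all genes 56.3% were positive and 3.74% lay lower without overlap. Gins4, of the replicative helicase, read 1.04, 2.36 and 1.07 in controls and 0.43, 0.39 and 0.32 in HDM, a difference of -1.11 (SE 0.44, limma unadjusted p = 0.030, adjusted p = 1), or -0.67 without control 2. Rfc3, of the clamp loader, differed by -1.20. Mitosis genes leaned the other way, with 16 positive of 23 and a median of 0.42, or 0.13 without control 2, and 11 of the 23 were well above background on all 6 arrays.

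Immediate early genes had 8 positive of 24, a median of -0.18, 1 without overlap in the higher and 5 in the lower direction, beside 5.87% and 3.74% of all genes, of which 56.3% were positive. Junb read 2.46, 2.96 and 2.62 in controls and 2.09, 2.10 and 1.90 in HDM, a difference of -0.65 (SE 0.32). Ier2 differed by -0.82 and Fosb by -1.28, whereas Nr4a2, an orphan nuclear receptor, differed by 3.38 at the probe kept and by -1.95 at the probe that the 6 arrays alone would select. Interferon response genes had 7 positive of 22 and a median of -0.18, with 1 member without overlap in the higher direction, Rsad2, and 2 in the lower, Irf7 and Usp18. Irf7, the master factor of that response, read -0.28, 1.65 and 1.07 in controls and -1.45, -1.88 and -1.46 in HDM, a difference of -2.41 (-6.13 to 1.31; -3.72 to -1.10 in the 6 arrays alone, limma adjusted p = 0.89). Usp18 was well above background on none of the 6 arrays.

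B cell receptor signalling genes had 12 positive of 23 and a median of 0.00. Blnk, the adaptor behind the receptor, read -0.34, -0.91 and 0.04 in controls and 0.40, 0.61 and 0.46 in HDM, a difference of 0.89 (SE 0.34, limma unadjusted p = 0.026, adjusted p = 1). Cd40, the receptor that the culture stimulated, read 1.13, 1.65 and 0.79 in controls and -0.22, -0.73 and 0.37 in HDM, a difference of -1.38 (-3.14 to 0.37; -2.40 to -0.37 in the 6 arrays alone, limma adjusted p = 0.97). Among single genes of further lists, Mvd of sterol synthesis differed by 1.54 (unadjusted p = 0.035), the stress chaperone Hspa1a by 2.55 (0.014), Myof by 1.32 (0.016) and Rhob by -1.08 (0.029; 0.53 at its other probe), all with a limma adjusted p of 1. The 6 arrays alone gave Hspa1a an interval of 1.56 to 3.55 and an adjusted p of 0.53.

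**Figure D5:**
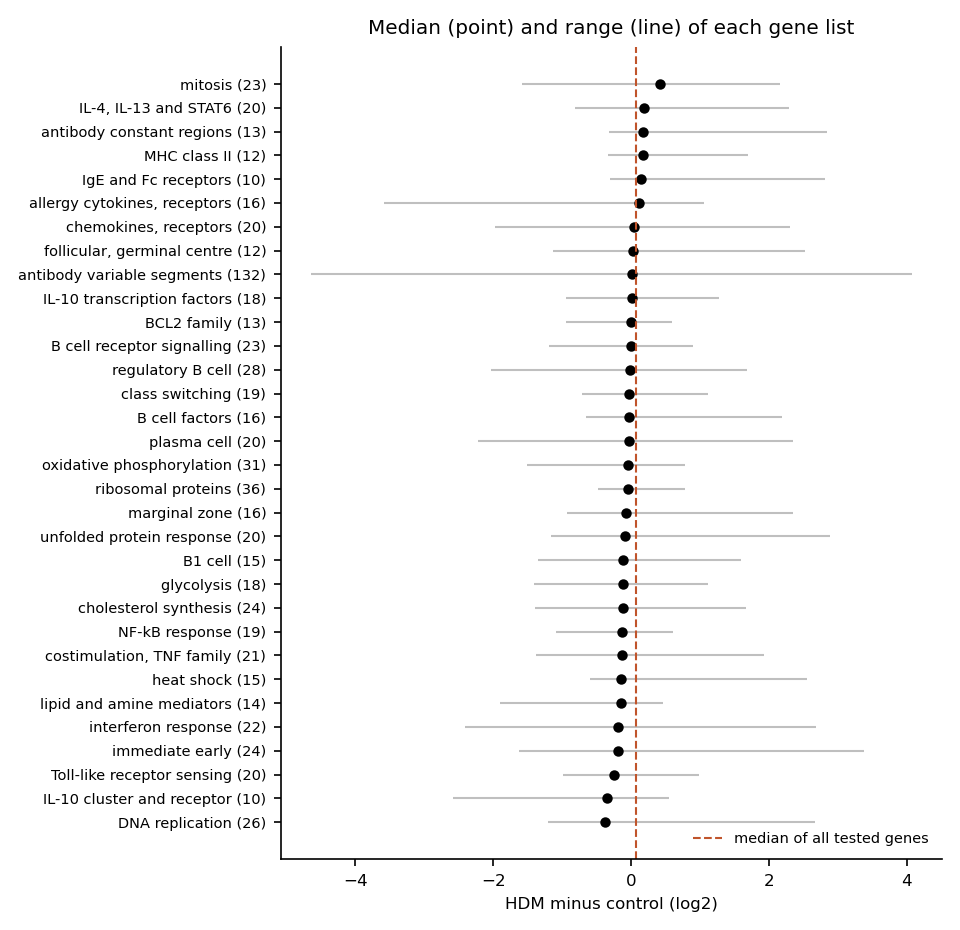
Median (point) and range (line) of HDM minus control (log2) within IL-10+ cells for each gene list other than the cell type markers, with the number of tested genes in brackets; the dashed line is the median of all tested genes, 0.07. Most medians lie within 0.2 of 0, of the lists drawn mitosis is highest at 0.42 and DNA replication lowest at -0.37.

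Whether the HDM effect differed between IL-10+ and IL-10- cells was tested for every gene, and 3 (0.012%) passed at an adjusted p under 0.05, with 1610 (6.45%) at an unadjusted p under 0.05. They were ENSMUST00000100326, Gspt2 and Tsen54. Gspt2, a translation termination factor, differed by 2.74 in IL-10+ and by -3.87 in IL-10- cells. Tsen54, a subunit of the tRNA splicing endonuclease, read 0.47, -0.08 and 0.60 in IL-10+ controls and 0.99, 0.13 and 0.27 in IL-10+ HDM, so it is the IL-10- side, at -5.72, that differed. Set side by side, 12 genes (0.0481%) were called in IL-10- cells and 2274 (9.12%) had an unadjusted p under 0.05 there, whose HDM arrays lie on another slide than 2 of their 3 controls. No gene of the regulatory, antibody or allergy lists passed the test of the difference.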

How the data were processed

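The 12 arrays were hybridised with Cy3-labelled cDNA that had been amplified by global PCR from bead-isolated mRNA, per the labels' protocols, so levels carry the bias of that amplification. The deposited scanner files hold the signal intensity of each spot, background-subtracted by Agilent Feature Extraction 10.7.3.1 per the file headers, with other values such as flags for well above background. The authors also deposited a table of ratios, in which each spot's processed signal is divided by the median of its array. Here spots of one probe were averaged, log2 intensity was taken minus each array's 75th percentile, and probes flagged as outliers or well above background on fewer than 3 of 12 arrays were left out. One probe a gene was kept, the brightest on average.

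Groups follow the sample titles. limma 3.58.1 (R 4.3.3) fitted 4 group means over 12 arrays (lmFit, eBayes, Benjamini-Hochberg), with 8 residual degrees of freedom, and was tested on simulated data. A gene was called at an adjusted p under 0.05. For 27503 probes the name came from a reference gene list by accession, and 24210 kept the name of the array design, which can be old. The rest were matched by symbol, synonym or description. Genes that could be named were Il10, Cd9, members of the 7 question lists, and up to 4 members of other lists by smallest p. Not every member of the 7 lists is given. In each direction 12 genes with symbols were named as well, called first, then by smallest p. They had no overlap and were well above background on all arrays of the higher group. Genes called in the test of the difference between IL-10+ and IL-10- cells are also named; Ncr1 was named after its values were seen. The members and lists were chosen with earlier results of these data known. Array number limits the precision. Replicate numbers did not pair the IL-10+ control with the IL-10+ HDM arrays, with correlations of same-numbered deviations of -0.073, -0.050 and -0.004. Whether they pair IL-10+ with IL-10- arrays was not checked by correlation. The alternatives were other background corrections, scalings, filters and probe choices, slide and replicate blocks, array weights and leaving out each array. Sequences come from the array files.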

Additional observations from a re-analysis of the deposited data

Results flagged for a closer look

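For 3 transcripts the HDM effect differed between IL-10+ and IL-10- cells by a test of the difference itself (limma, adjusted p under 0.05). Tsen54 gave a difference of 5.86 (adjusted p = 0.025), from an HDM effect of 0.13 in IL-10+ cells against -5.72 in IL-10- cells. Gspt2 gave 6.60 (adjusted p = 0.047), from 2.74 and -3.87. The predicted gene ENSMUST00000100326 gave -4.62 (adjusted p = 0.031), from -4.82 and -0.20, and was well above background on the IL-10+ control arrays alone. With slide as a block the values were 5.16 for Tsen54, 6.88 for Gspt2 and -4.49 for ENSMUST00000100326, each with an adjusted p of 0.17. Normexp gave 3.25, 1.80 and -1.43, and the mean of all probes of the gene gave 2.69 for Tsen54 (adjusted p = 0.39). The IL-10- HDM arrays lie on another slide than all 6 IL-10+ arrays, and what slide contributes to these values was not tested further.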

How the results depend on the processing

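All values here are HDM minus control within IL-10+ cells (log2) unless said otherwise, and why a value moved was not tested except where a filter removes genes or probes. Counts of called genes, 1 in IL-10+ cells, were 0 with normexp and with the filter on all 6 arrays (which removes the gene), 3 with quantile normalization and 6 with array weights, and ranged from 1 to 2 when each array was left out. At an unadjusted p under 0.05, 569 genes became 958 and 1099 in the 6 arrays alone (own filter and the same genes, the latter chosen after seeing the data), 896 without a filter, 259 with the filter on all 6 arrays and 1628 with array weights. The range over left-out arrays was 358 (without IL-10+ control 2) to 887 (without IL-10+ control 1). The 12 genes called in IL-10- cells became 4 with normexp, 6 in the authors' table, 0 with slide as a block and 3 with the replicate block, and ranged from 3 to 128 (without IL-10- HDM 1). The 3 genes whose effect differed became 0 with normexp, quantile normalization, the authors' table, the mean of probes, slide or the replicate block, 1 with the filter on all 6 arrays, and ranged from 0 to 14 (without IL-10- HDM 1). The replicate block kept 1 call in IL-10+ cells, with an adjusted p of 0.012 for ENSMUST00000100326.

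List medians moved in the authors' table, which shifts the median of all genes to -0.21: regulatory genes to -0.30, IL-4, IL-13 and STAT6 genes to -0.11, and IgE and Fc receptors to -0.14. The filter on all 6 arrays moved the IL-4 list to -0.091, and the mean of probes moved the constant region list, which holds other antibody genes too, to 0.80. Leaving out arrays gave -0.18 to -0.0093 for regulatory genes and 0.080 to 0.47 for the IL-4 list.

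Signs turned mostly for differences near 0. In the authors' table they were Tsen54 -0.15, Cd80 -0.18, Cd22 -0.090, Ighm -0.25, Iglc2 -0.015, Ighg1 -0.27, Prdm1 -0.22, Batf -0.22, Il1rl1 -0.20, Crlf2 -0.13, Entpd1 -0.22, Fcgr1 -0.18, Fcrl1 -0.27, Fcrl5 -0.23, Il3ra -0.12 and Nt5e -0.26. Array weights gave Tsen54 -0.070, Cd274 0.10, Igkc 0.028, Ighg1 -0.36, Jchain 0.44, Pigr 0.013, Ccl22 0.065, Crlf2 -0.067, Entpd1 -0.99, Irf4 0.081, Ncr1 -0.13 and Pou2af1 0.029. Quantile normalization gave Cd274 0.032, Ighg1 -0.10, Jchain 0.062, Pigr 0.048, Il1rl1 -0.13 and Fcgr1 -0.019. Normexp gave Ighg1 -0.14, Pigr 0.011, Entpd1 -0.056 and Nt5e -0.12. The mean of probes gave Tsen54 -0.041, Cd80 -0.25, Stat6 0.23 and Il4ra -0.076. Without a filter another probe stood for Epb41l1 at 0.96, and in the 6 arrays with their own filter another stood for Nr4a2 at -1.95.

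With each array left out in turn, the sign also turned for Batf (-0.10 to 0.18), Ccl22 (-0.22 to 0.14), Cd274 (-0.36 to 0.25), Cd80 (-0.033 to 0.24), Crlf2 (-0.14 to 0.36), Entpd1 (-0.81 to 0.90), Fasl (-0.93 to 0.39), Fcgr1 (-0.059 to 0.27), Fcrl1 (-0.19 to 0.24), Fcrl5 (-0.12 to 0.31), Ighe (-1.14 to 0.53), Ighg1 (-0.94 to 0.98), Ighm (-0.16 to 0.29) and Igkc (-0.44 to 0.15). It turned too for Il19 (-2.11 to 0.10), Il1rl1 (-0.12 to 0.46), Irf4 (-0.43 to 0.20), Jchain (-0.61 to 0.66), Ncr1 (-0.39 to 1.07), Nt5e (-1.00 to 1.09), Pigr (-0.067 to 0.076), Pou2af1 (-0.33 to 0.10), Prdm1 (-0.047 to 0.18), Sdc1 (-0.91 to 1.58), Slamf7 (-0.33 to 0.032), Stat6 (-0.66 to 0.092) and Tsen54 (-0.13 to 0.30).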

Other observations

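Genes of MHC class II presentation had 7 positive differences of 12 tested and a median of 0.18, or -0.02 without control 2. H2-Aa, the alpha chain of an MHC class II molecule, read 2.83, 3.64 and 2.87 in controls and 3.90, 4.05 and 3.54 in HDM, and Cd74, the invariant chain, differed by 0.62 (-0.56 to 1.81), or 1.00 without control 2. The H2-Aa difference of 0.72 (-0.21 to 1.65) came with overlapping groups. Among chemokine genes Cxcl10, an attractant of activated T cells, differed by -1.97 (-1.30 without control 2) and Cxcl9, a ligand of the same receptor, by 0.46 (0.27). Gpr183, which guides B cells within follicles, differed by 2.31 and read -5.84 on control 2 alone, where it was lowest of the 6; without that array the difference was 0.36.

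Ribosomal protein genes had 12 of 36 intervals within 2-fold, against 13.3% of all genes, a median of -0.05 and differences from -0.48 to 0.79. Replicates of the control group varied more than those of the HDM group: the median SD over genes was 0.599 against 0.446, and 63.9% of genes had the larger SD in controls. Control 2 enters the first of these.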
